A study of Mus musculus with 2 samples.

Results

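The 43 genes described here encode the machinery that copies DNA and supplies it during S phase of the cell cycle. They form a list of gene symbols, and all 43 were found in both tables, among 27706 gene columns in either. By role they are 10 genes of origin recognition and licensing (Orc1, Orc6, Cdc6, Cdt1, Mcm2 to Mcm7), 4 of helicase activation (Mcm10, Cdc45, Gins1, Gins2), 6 of the sliding clamp and its loader (Pcna, Rfc1 to Rfc5) and 3 of single-strand binding (Rpa1 to Rpa3). The others are 7 genes of polymerases and primase (Pola1, Pola2, Prim1, Prim2, Pold1, Pold3, Pole), 2 of Okazaki fragment joining (Fen1, Lig1), 4 of nucleotide supply (Rrm1, Rrm2, Tyms, Tk1), 4 of chromatin assembly and maintenance (Uhrf1, Chaf1a, Chaf1b, Atad2) and 3 of S phase entry and histone messages (Ccne1, Ccne2, Slbp).

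The cells came from bone marrow of ICR mice, an outbred stock, aged 7 to 8 weeks, from which magnetic beads had taken out lineage-positive cells, and transcripts were counted as unique molecules (UMIs) on the BD Rhapsody single-cell system. Mice of the hypoxia group lived in an altitude chamber for 13 days at 52.93 kPa, given as equal to 5000 m, with 19.5% oxygen, while control mice were killed when they arrived. Each group is 1 library, and how many mice it holds is not stated in the sources used here. There is no replicate and no test: each interval below is a 95% interval for counting error alone, without variation between cells, animals and preparations, and time, age and handling cannot be told apart from hypoxia.

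Replication is prepared when the origin recognition complex, with Cdc6 and Cdt1, loads the Mcm helicase onto DNA before S phase. Cdc45 and the GINS complex then switch the helicase on, the clamp Pcna tethers the polymerases, and ribonucleotide reductase supplies the nucleotides. Many of these genes are targets of E2F factors, which are released when cyclin-dependent kinases inactivate the retinoblastoma protein, and in bone marrow the erythroid progenitors of the colony-forming stage (CFU-E) divide rapidly as they begin to make globin, while most stem cells divide seldom.

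As E2F factors are known regulators of these genes, promoter letters of the E2F type are shown first. The letters TTTCCCGC, TTTCGCGC, TTTGCCGC and TTTGGCGC, searched on both strands, were found in the 250 bases before the listed RefSeq start of 7 of the 35 members with a promoter entry: Mcm5, Mcm6, Mcm7, Cdc6, Orc1, Rfc3 and Pola1. Over all 27025 promoters of that table (GRCm38.p6) 517 held them (1.91%), as did 2 of 39 genes of a G2/M list (5.13%) and 8 of 36 genes of a list of other replication genes (22.2%), a share like that of the members. For 4 of the 7 the match lies within the span of the gene. The windows of the other 3 lie at chr8:75109330-75109393 on the plus strand (Mcm5), chr1:128359719-128359841 on the minus strand (Mcm6) and chr5:151651209-151651244 on the minus strand (Rfc3), all upstream of the gene. They read 5′ to 3′ on the strand of the gene, with matching letters in capitals.
Mcm5: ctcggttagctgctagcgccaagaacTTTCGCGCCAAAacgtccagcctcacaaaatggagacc
Mcm6: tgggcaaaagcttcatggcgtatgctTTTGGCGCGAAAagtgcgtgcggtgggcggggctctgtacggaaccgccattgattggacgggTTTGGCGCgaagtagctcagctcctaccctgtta
Rfc3: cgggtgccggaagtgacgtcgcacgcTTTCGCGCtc
In Mcm5 a match on each strand overlaps the other, which makes the longer run of capitals, and the same holds for the longer run in Mcm6. The letters CCAAT stood in 62.9% of the member promoters, 34.5% of all promoters, 18 of the 36 promoters of the other replication genes and 79.5% of those of G2/M genes. TTTGAA, letters of the CHR element of many G2/M genes, stood in 8.57% of the member promoters, 16.3% of all, 13.9% of those of the other replication genes and 33.3% of those of G2/M genes. A match describes the sequence and shows no binding.

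After filtering, 6280 hypoxia and 3917 control cells remained, with median depths of 21344.5 and 32156 UMIs. Cells were placed in 13 gates by marker genes that are not members, in counts per 10000 UMIs of the cell, and a gate is a range of marker levels, not a cell type. The Hlf gate (199 hypoxia and 193 control cells) holds cells with Hlf, a transcription factor of stem cells and multipotent progenitors, at median levels of 4.34 and 4.64 per 10000. The granulocyte gene Mpo, on which this gate sets no limit, had medians of 8.40 and 7.69 per 10000 in it. Erythroid stages were read from Car1, Gata2 and the summed globins: early cells with Car1 and Gata2 (133 and 155), CFU-E cells with Car1 and little Gata2 or globin (1668 and 1546), globin onset cells at 3 to 30 globin UMIs per 10000 (609 and 340) and globin-high cells from 30 upwards (872 and 199). Doubling the limits left 645 and 135 globin-high, 1601 and 1517 CFU-E and 155 and 142 Hlf cells, and halving them gave 1048 and 291, 1381 and 1277, and 213 and 203. In the CFU-E gate the erythroid genes Car2 and Tfrc had medians of 46.2 and 36.5 and of 5.35 and 5.83 per 10000. Mpo, Elane and Pf4 of other lineages had medians of 0 in both libraries, but Mpo and Pf4 were held low by the gating itself. Cells with 10 or more summed Mpo, Prtn3 and Ctsg, or 5 or more Pf4, per 10000 could not enter the gate. The other gates were set by Elane (granulocyte progenitors), Irf8 with Flt3, Irf8 or Ly6c2, Dntt (lymphoid-primed), Pf4 (megakaryocyte), Prss34 or Mcpt8 (basophil), S100a8 or S100a9 (neutrophil) and Gata2 without Car1. The libraries stood apart at the CFU-E stage: clustered without the members, 1106 control and 41 hypoxia cells formed 1 CFU-E cluster, and 726 hypoxia and 17 control cells another. Cell labels shared by the tables numbered 23.

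Replication transcripts climbed with the erythroid stages in both libraries. In the hypoxia library the 43 genes made up 0.483% of all UMIs in Hlf cells, 0.688% in CFU-E cells, 1.04% at globin onset and 1.51% in globin-high cells. In the control library the shares were 0.464%, 0.700%, 0.992% and 1.29%. Below these erythroid stages came the Irf8 or Ly6c2 gate (0.603% and 0.594%) and the Irf8 Flt3 gate (0.593% and 0.576%), in that order in both libraries. The neutrophil gate was lowest in both (0.281% and 0.349%). A share of this kind does not tell fewer cycling cells from fewer transcripts per cell.

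**Figure D1:**
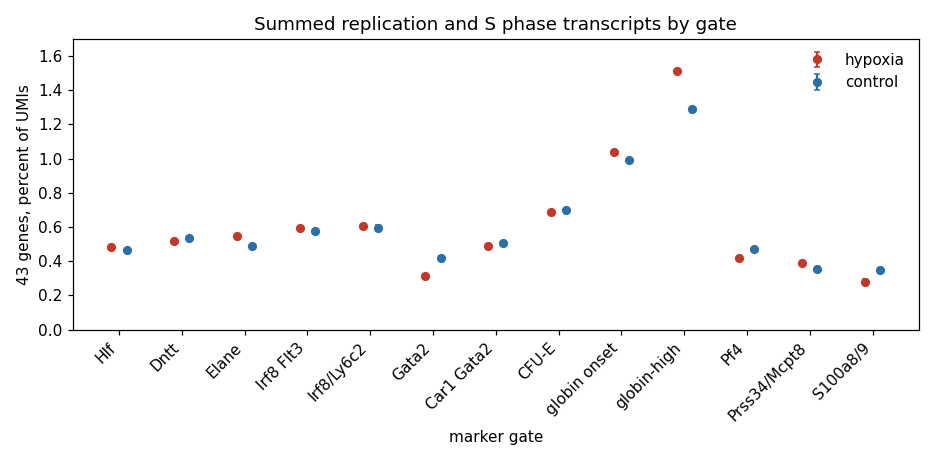
Summed UMIs of the 43 genes as a percent of all UMIs of a gate (y axis) in 13 marker gates (x axis), for the hypoxia (red) and control (blue) libraries, with exact Poisson 95% intervals mostly smaller than the points. The share climbs from CFU-E cells to globin-high cells, where it reached 1.51% and 1.29%.

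All 43 genes were higher in globin-high than in CFU-E cells in both libraries, with a median fold of 1.98 in hypoxia and 1.69 in control. How many of all genes rose at this step was not counted. Median UMIs per cell were 29471.5 and 42620 in CFU-E cells, hypoxia first, and 20335 and 28288 in globin-high cells. The folds are of shares of UMIs, not of UMIs per cell. G2/M genes rose as well in erythroid cells grouped by globin. Their share went from 0.899% below 0.3 globin UMIs per 10000 to 2.20% from 300 upwards in hypoxia. In control it went from 0.902% to 2.57%. The steepest step among the members was that of Rrm2, the ribonucleotide reductase subunit whose abundance is tied to S phase, at 4.19 and 3.06 times. Pold1, the catalytic subunit of polymerase delta, had the flattest in hypoxia, at 1.11 times, and Rfc5 of the clamp loader the flattest in control, at 1.14 times. How many of all genes rose from Hlf to CFU-E cells was not counted either. Of the members 38 were higher in CFU-E cells in both libraries, with median folds of 1.47 and 1.46. The 4 genes lower in CFU-E cells in both were Rfc1 and Rfc2 of the clamp loader, Pola1, the catalytic subunit of the polymerase that works with primase, and Pold3, an accessory subunit of polymerase delta. Their ratios of CFU-E over Hlf ran from 0.719 (Rfc2, control) to 0.953 (Pold3, control). Atad2, a chromatin ATPase, was lower in hypoxia alone, at 0.963.

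Ccne1, the cyclin that drives entry into S phase, had the steepest gradient from Hlf to CFU-E cells. It stood at 14.8 and 14.4 CPM in Hlf cells, hypoxia first (CPM, counts per 1000000 UMIs of the gate), at 32.8 and 36.1 CPM in early erythroid cells and at 143 and 186 CPM in CFU-E cells. It reached 256 and 327 CPM at globin onset and 378 and 374 CPM in globin-high cells, where the libraries met. Orc1, the large subunit of the origin recognition complex, went from 13.0 and 7.58 CPM in Hlf cells to 37.6 and 39.1 CPM in CFU-E cells and 91.7 and 84.4 CPM in globin-high cells. Cdc6, which helps to load the helicase, stood at 65.1 and 51.6 CPM, 182 and 175 CPM and 448 and 371 CPM in the same gates. Rrm2 was at 67.3 and 61.8 CPM in Hlf cells, 241 and 265 CPM in CFU-E cells, 549 and 524 CPM at globin onset and 1009 and 812 CPM in globin-high cells. Its partner Rrm1 was at 173 and 193 CPM in Hlf cells, 201 and 199 CPM in early erythroid cells, 378 and 389 CPM in CFU-E cells, 550.1 and 554 CPM at globin onset and 720.0 and 724 CPM in globin-high cells. The libraries lay near each other for Rrm1 at each stage, and Rrm2 was higher in hypoxia in the globin-high gate (ratio 1.24, 1.204 to 1.28).

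The member of each role with the most UMIs was highest in globin-high cells in both libraries, and each had its own order of the libraries. Mcm5, a helicase subunit, was at 224 and 223 CPM in Hlf cells, 230.0 and 288 CPM in early erythroid cells, 348 and 401 CPM in CFU-E cells, 499.8 and 546 CPM at globin onset and 665 and 645 CPM in globin-high cells. It was lower in hypoxia at the 3 middle stages and close at either end. Pcna, the clamp, was at 361 and 289 CPM, 361 and 298 CPM, 450.3 and 398 CPM, 743 and 584 CPM and 1211 and 863 CPM in the same order of gates, higher in hypoxia at each. Uhrf1 was at 168 and 175 CPM, 148 and 208 CPM, 182 and 238 CPM, 297 and 343 CPM and 460.0 and 421 CPM, with hypoxia lower from early erythroid cells to globin onset and higher in globin-high cells. Lig1, the ligase of Okazaki fragments, was at 194 and 206 CPM, 200.1 and 212 CPM, 276 and 261 CPM, 430.1 and 386 CPM and 691 and 552 CPM. Hypoxia was the higher library for Lig1 from CFU-E cells onwards. With TMM factors, a scaling described below, its CFU-E ratio was 0.974 (0.953 to 0.996), so that direction turned at the CFU-E stage. Slbp, which binds histone messages, was at 145 and 142 CPM, 183 and 190.1 CPM, 263 and 256 CPM, 457 and 418 CPM and 729 and 583 CPM, and Rpa1, of the single-strand binding complex, at 103 and 93.7 CPM, 104 and 113 CPM, 158 and 156 CPM, 209 and 199.9 CPM and 308 and 265 CPM. Prim1, which lays the primer, was at 114 and 95.6 CPM, 114 and 104 CPM, 127 and 116 CPM, 181 and 169 CPM and 251 and 223 CPM, and Mcm10, which joins the helicase to the polymerase, at 42.2 and 47.0 CPM, 49.7 and 60.2 CPM, 82.7 and 93.7 CPM, 98.3 and 102 CPM and 125 and 112 CPM. For Slbp, Rpa1 and Prim1 the gap between the libraries in CPM was widest in globin-high cells, and Mcm10 was lower in hypoxia in CFU-E and higher in globin-high cells.

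Rfc2 did not follow the other genes. It was highest in the basophil gate of both libraries (423 and 338 CPM) and, among the gates other than the thin neutrophil gate, lowest in CFU-E cells (197 and 174 CPM). Over the 26 points of 13 gates in 2 libraries, the Pearson correlation of its log2 level with the mean of the other members was 0.087, against a median of 0.924 over the members and 0.985 for Mcm4, the highest. The points share libraries and depth, so these correlations are descriptions. Rfc2 (chr5:134582690-134598328, GRCm38.p6) shares exon positions with Lat2 on the opposite strand, and how the counting treated strand is not stated in the sources used here, so UMIs of the pair may not be separable. In all, 16 members share exon positions with a neighbour in the GENCODE vM21 annotation, among them Mcm7, Rfc4, Rfc5, Tk1, Fen1, Lig1, Pole, Orc1 and Slbp.

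**Figure D2:**
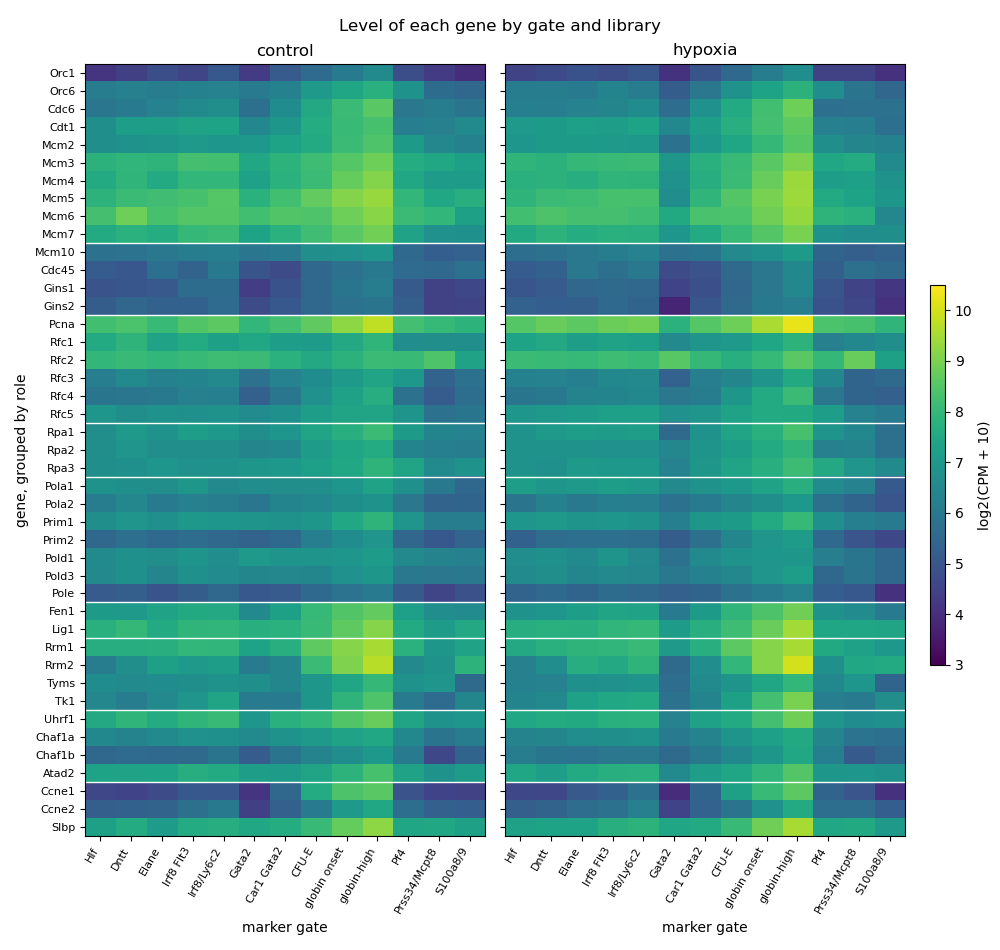
Level of each of the 43 genes as log2(CPM + 10) (colour) in 13 marker gates (x axis), genes grouped by role (white lines), one panel per library. The brightest squares stand in the globin-high column of both panels, and the line of Rfc2 is brightest in the basophil column.

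The 5 genes outside all lists used here whose pattern over the same 26 points was most like the mean of the members were Pcna-ps2 (Pearson r of 0.973), Fignl1 (0.958), Dek (0.954), Phlpp2 (0.952) and Cenph (0.9505). Pcna-ps2 is a pseudogene of Pcna, so its UMIs may be those of Pcna. Dek, a chromatin protein, stood at 457 and 451 CPM in Hlf cells and 1930.2 and 1753 CPM in globin-high cells.

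Between whole libraries, the members made up 0.798% against 0.710% of UMIs (ratio 1.12, 1.12 to 1.13). The mix of cells differed as well: globin-high cells were 13.9% of the hypoxia and 5.08% of the control library, and CFU-E cells 26.6% and 39.5%. With the gate shares of the control library given to both, the ratio was 1.02, and with those of the hypoxia library 1.06. The comparisons that follow were therefore made within gates. There a gene is counted as higher or lower at a 1.5-fold difference after 10 CPM is added to both levels, and as measured with at least 50 UMIs over both libraries in the gate.

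**Figure D3:**
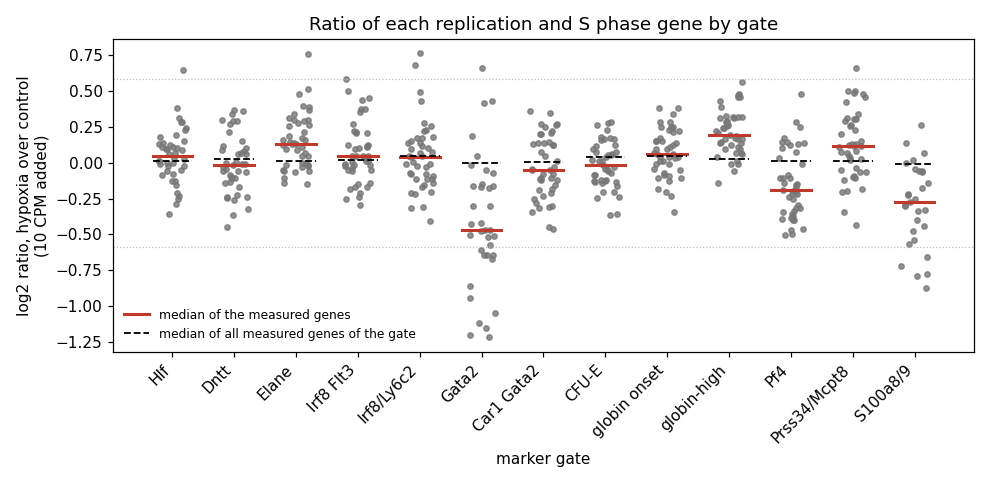
Log2 ratio of hypoxia over control with 10 CPM added (y axis) for each measured member (grey points) in 13 marker gates (x axis), with the median of the members (red line) and of all measured genes of the gate (dashed), and the 1.5-fold limits (dotted). The red lines lie near 0 in most gates, at 0.20 in globin-high cells and at -0.47 in the Gata2 gate.

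In Hlf cells the replication transcripts were close between the libraries when UMIs were summed over the gate. Of 42 measured members 5 had a ratio interval above 1, 3 below 1 and 34 across 1, where 15.3% of all measured genes had an interval above 1 and 13% below. With TMM factors, a scaling that takes most genes to be equal, 4 lay above and 4 below (13.4% and 14.9% of all), so the members' shares were below those of all genes. The ratio of sums was close to 1 (1.04, 1.01 to 1.07), and the median log2 ratio was 0.05, beside 0.01 for all 8993 measured genes. That ratio of sums moved further from 1 with gate limits doubled (1.12), as a mean over cells (1.097) and at equal depth (1.09). It moved nearer to 1 with TMM factors (1.02, 0.9945 to 1.05), and that interval held 1. Chaf1b, a subunit of the histone chaperone that works behind the fork, was the 1 member past 1.5-fold, at 61.1 CPM (51.2 to 72.2) against 35.3 CPM (28.5 to 43.2) (ratio 1.73, 1.32 to 2.28), where 2.8% of all measured genes were higher and 2.54% lower. With gate limits doubled, or cells at equal depth, 2 members were higher. Pcna was at 361 against 289 CPM (ratio 1.25, 1.13 to 1.38) and Pola1 at 137 against 103 CPM (ratio 1.34, 1.13 to 1.58). Lower in hypoxia were Tyms, the thymidylate synthase, at 68.2 against 90.2 CPM (ratio 0.756, 0.613 to 0.931), Fen1, the flap nuclease, at 103 against 125 CPM, and Rfc1 at 154 against 182 CPM. For Mcm5 (224 and 223 CPM), Rrm1, Lig1 (194 and 206 CPM), Uhrf1 (168 and 175 CPM) and Slbp (145 and 142 CPM) the interval held 1.

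Genes of the later cycle phases differed more than the replication genes in these Hlf cells. All 46 genes of the G2/M list were measured, 16 were at least 1.5-fold lower in hypoxia and 0 higher, and 31 intervals lay below 1. Their share was 0.592% against 0.869% (ratio 0.681, 0.667 to 0.696). Cenpf, a kinetochore protein, was at 103 against 204 CPM, Ccnb1, a mitotic cyclin, at 67.3 against 124 CPM and Mki67, the proliferation marker, at 274 against 422 CPM. The list of 46 other replication genes had a ratio of sums near 1 (1.02, 0.989 to 1.05). Replication-dependent histone messages, most of which lack a poly(A) tail, had a ratio of 0.605 (0.553 to 0.661), from 10 measured genes. Markers of other lineages differed in the same gate: 6 basophil and mast genes summed to 491 against 274 CPM and 4 globins to 75.9 against 11.4 CPM, and their part in these ratios was not tested.

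In Elane cells 26 of 43 intervals lay above 1 and 3 below, where 26.9% of all measured genes had an interval above 1 and 22.3% below. The members made up 0.546% against 0.490% of UMIs (ratio 1.11, 1.101 to 1.13), and the median log2 ratio was 0.13, beside 0.01 for all measured genes. Tk1, the thymidine kinase, was the 1 member past 1.5-fold, at 146 CPM (141 to 152) against 82.3 CPM (76.7 to 88.3) (ratio 1.78, 1.64 to 1.93), where 1.97% of all measured genes were higher and 1.32% lower. With 1 CPM added 2 members were higher, and with cells at equal depth 4. Nucleotide supply had the highest ratio of the roles (1.28, 1.24 to 1.33), and the intervals of all 4 of its genes lay above 1. Pcna was at 381 against 263 CPM, Rrm2 at 195 against 145 CPM and Pole, the leading strand polymerase, at 33.1 against 20.9 CPM. Pold1 (85.5 and 95.4 CPM), Rfc1 (135 and 151 CPM) and Fen1 (139 and 149.8 CPM) were lower in hypoxia. For Mcm5 (281 and 286 CPM) and Mcm6 (304 and 308 CPM) the interval held 1. Irf8, a marker of the monocyte and dendritic branch, was at 423 against 222 CPM in the Elane gate, and 6 granulocyte genes summed to 17623 against 20576 CPM. Their part in these ratios was not tested.

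In the Irf8 or Ly6c2 gate the sums were close (ratio 1.02, 0.986 to 1.05). Ccne1, at 45.7 against 22.8 CPM, and Rrm2, at 223 against 135 CPM, were the 2 of 43 members past 1.5-fold, where 7.04% of all measured genes were higher and 3.86% lower. That gate held 50 control cells. In the Irf8 Flt3 gate the ratio was 1.03 (1.01 to 1.05), and in the Dntt gate 0.970 (0.940 to 0.9999). Mcm6 was lower among Dntt cells of the hypoxia library, at 328 against 451 CPM.

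Early erythroid cells with Car1 and Gata2 had shares of 0.490% against 0.505% (ratio 0.969, 0.943 to 0.997). That direction turned when each cell was given equal weight (1.03) or equal depth (1.01). No member of 43 was past 1.5-fold, where 5.26% of all measured genes were higher and 4.17% lower. With gate limits doubled, 3 members were lower. Licensing genes had a ratio of 0.903 (0.860 to 0.949), with Mcm2 at 119 against 154 CPM and Mcm5 at 230.0 against 288 CPM. Clamp and loader genes had a ratio of 1.101 (1.03 to 1.18), with Pcna at 361 against 298 CPM. With TMM factors the interval of that role held 1 (1.06, 0.995 to 1.13). Uhrf1, which helps to carry DNA methylation through replication, was at 148 against 208 CPM, and Chaf1a, the partner of Chaf1b, at 72.6 against 103 CPM.

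In CFU-E cells, the gate with the most cells, the members made up 0.688% against 0.700% (ratio 0.983, 0.978 to 0.987). Of the 43 genes 18 had intervals above 1 and 19 below, where 44.7% of all measured genes lay above 1 and 29.1% below. Among the members the share above 1 was thus close to that of all genes, and the share below 1 was larger. None was past 1.5-fold, where 2.39% of all measured genes were higher and 1.31% lower. The gate held 49261331 and 66803493 UMIs, so counting error was small. Scaling by TMM lowered each log2 ratio of this gate by 0.12 and gave a ratio of sums of 0.905 (0.901 to 0.909), with 9 intervals above 1 and 30 below (33.1% and 40.4% of all measured genes).

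The member furthest below 1 at the CFU-E stage was Uhrf1, at 182 against 238 CPM (ratio 0.767, 0.747 to 0.787) followed by Ccne1, at 143 CPM (139 to 146) against 186 CPM (183 to 189) (ratio 0.767, 0.745 to 0.790). Ccne2, the second E-type cyclin, was at 49.0 against 60.1 CPM, Rfc3 at 75.4 against 90.5 CPM and Orc6, the small origin recognition subunit, at 105 against 123 CPM. Mcm5 was at 348 against 401 CPM (ratio 0.867, 0.850 to 0.884), and Mcm10 at 82.7 against 93.7 CPM. On the higher side were Pole at 46.6 against 37.0 CPM, Tk1 at 143 against 115 CPM (ratio 1.24, 1.197 to 1.28), Pola1 at 118 against 95.4 CPM and Prim2, the large primase subunit, at 77.6 against 64.7 CPM. With TMM factors the ratios of these 4 were 1.16, 1.14, 1.14 and 1.11, still above 1.

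Other cell cycle lists were uneven at this stage. The list of D cyclins and CDK inhibitors had a ratio of 0.637 (0.625 to 0.649), with Ccnd2, a D cyclin, at 60.3 against 226 CPM. Its genes did not share 1 direction. Cdkn1b, a CDK inhibitor, had ratios of 1.54 (1.43 to 1.65) below 0.3 and 1.42 (1.35 to 1.51) from 0.3 to 3 globin UMIs per 10000. Ccnd3, another D cyclin, had ratios of 0.753 and 0.694 in the same cells. E2F and pocket protein genes had a ratio of 1.04 (1.03 to 1.05), with Rb1, the retinoblastoma gene, at 100.5 against 65.2 CPM. E2f2 of that list went the other way, at 0.677 (0.575 to 0.793) and 0.653 (0.600 to 0.711) in these ranges of globin. G2/M genes had a ratio of 0.992 (0.988 to 0.996). With TMM factors the ratio of E2F and pocket protein genes was 0.960 (0.951 to 0.970), so its direction turned with the scaling. That of G2/M genes was then 0.914 (0.910 to 0.917). The CFU-E cells of the libraries also differed in Kit, a receptor lost as these cells mature, which was at 325 against 207 CPM, and 6 basophil and mast genes summed to 54.5 against 11.3 CPM in them. The part of these in the member ratios was not tested.

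At globin onset the ratio of sums was 1.05 (1.04 to 1.05). It was 0.995 (0.988 to 1.002) with TMM factors and 0.996 in the matching cluster, so its direction turned with the scaling and the grouping. None of the 43 members was past 1.5-fold, where 2.82% of all measured genes were higher and 1.44% lower. Pcna was at 743 against 584 CPM (ratio 1.27, 1.24 to 1.31) and Tk1 at 295 against 224 CPM. Ccne1 was at 256 against 327 CPM (ratio 0.781, 0.750 to 0.814), Uhrf1 at 297 against 343 CPM and Mcm5 at 499.8 against 546 CPM.

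Globin-high cells had the most uniform difference among the erythroid stages. The members made up 1.51% against 1.29% of UMIs (ratio 1.17, 1.16 to 1.18). With TMM factors the ratio was 1.16 (1.16 to 1.17). Intervals lay above 1 for 34 of 43 genes and below 1 for 1, Pold1, at 115 against 128 CPM, where 29.9% of all measured genes had an interval above 1 and 23.3% below. The median log2 ratio was 0.20, beside 0.03 for all 9147 measured genes. No member passed 1.5-fold, where 3.27% of all measured genes were higher and 2.38% lower, so many members differed by a small amount.

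By role, the clamp and its loader had the highest ratio in globin-high cells (1.299, 1.27 to 1.33). Pcna (chr2:132249286-132253180) was at 1211 CPM (1195 to 1227) against 863 CPM (839 to 888) (ratio 1.403, 1.36 to 1.45), Rfc2 at 374 against 269 CPM and Rfc4 at 267 against 196 CPM, while Rfc1 (220.4 and 229 CPM) had an interval across 1. Helicase activation followed (1.25, 1.18 to 1.32), with all 4 intervals above 1, Cdc45 at 79.8 against 55.4 CPM and Mcm10 at 125 against 112 CPM. Among the 3 single-strand binding genes (1.202, 1.16 to 1.25) Rpa1 was at 308 against 265 CPM. Okazaki fragment joining had a like ratio (1.202, 1.17 to 1.24), with Lig1 at 691 against 552 CPM and Fen1 at 458 against 404 CPM.

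Nucleotide supply was divided within the role in globin-high cells (1.17, 1.15 to 1.19). Tk1 (chr11:117815519-117826087), the member furthest above 1, was at 500.2 against 335 CPM (ratio 1.49, 1.42 to 1.57) and Rrm2 at 1009 against 812 CPM, whereas Rrm1 (720.0 and 724 CPM) and Tyms (242 and 243 CPM) had intervals across 1. Polymerases and primase (1.15, 1.11 to 1.18) held Pold1 below 1 and the other 6 above, with Pola1 at 199 against 150.2 CPM and Prim1 at 251 against 223 CPM. S phase entry and histone messages (1.14, 1.11 to 1.18) were led by Slbp, at 729 against 583 CPM, while the interval of Ccne1 (chr7:38097984-38107490) held 1. Chromatin assembly and maintenance (1.13, 1.1003 to 1.17) held Chaf1b at 169 against 119 CPM and Uhrf1 at 460.0 against 421 CPM.

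Licensing had the lowest ratio of the roles (1.12, 1.104 to 1.14), with 7 of 10 intervals above 1. The helicase loaders Cdt1, at 387 against 309.6 CPM, and Cdc6, at 448 against 371 CPM, had ratios of 1.25 and 1.21. The helicase subunit Mcm4, at 651 against 542 CPM, had a ratio like that of Cdc6 (1.201, 1.15 to 1.25), followed by Mcm3, at 518 against 450.2 CPM (1.15, 1.101 to 1.202). Mcm6, at 623 against 563 CPM, Mcm2, at 358 against 333 CPM, and Mcm7, at 499 against 474 CPM, were nearer to 1. Mcm5 (chr8:75109468-75128439), at 665 and 645 CPM, had an interval across 1. In the same cells G2/M genes had a ratio of 0.986 (0.979 to 0.993), the 46 other replication genes 1.13 (1.11 to 1.14), and E2F and pocket protein genes 1.22 (1.199 to 1.25), with Rb1 at 418 against 246 CPM and its relative Rbl1 at 167 against 108 CPM. E2f2 was divided by globin level. Its ratio was 1.22 (1.12 to 1.32) from 30 to 100 globin UMIs per 10000 and 1.17 (1.08 to 1.27) from 100 to 300. From 300 upwards it was 0.721 (0.639 to 0.814).

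Globin-high cells of the libraries differed in their median globin level, 112 against 93.5 UMIs per 10000. Globins summed over the gate went the other way, at 14591 against 15243 CPM (ratio 0.957, 0.94996 to 0.965). Erythroid cells were therefore divided into 7 ranges of globin, chosen after the data had been seen. The ratio of the members was 0.955 (0.947 to 0.963) below 0.3 UMIs per 10000, 0.935 (0.930 to 0.940) from 0.3 to 3 and 1.004 (0.994 to 1.01) from 3 to 10. It was 1.09 (1.08 to 1.104) from 10 to 30, 1.14 (1.13 to 1.15) from 30 to 100 and 1.13 (1.12 to 1.15) from 100 to 300. From 300 upwards it was 1.31 (1.27 to 1.36), in 111 and 28 cells. Members were thus higher in hypoxia within each range from 10 upwards. Cells of 1 range were not matched in every stage marker: Slc4a1, the anion exchanger of the red cell membrane, had ratios of 1.54 (1.29 to 1.85), 1.43 (1.33 to 1.53), 1.51 (1.44 to 1.59) and 0.796 (0.746 to 0.850) in these 4 ranges, and stood at 1118 against 710.2 CPM in the globin-high gate. Basophil and mast genes summed to 53.9 against 9.65 CPM in that gate. The part of these differences in the member ratios was not tested. Over those 4 ranges the ratio of G2/M genes went from 0.999 to 0.855. Summed globins were higher in hypoxia in some gates outside the erythroid line (49.4 against 8.69 CPM in Elane cells). They were lower in the megakaryocyte (533 against 599.96 CPM) and neutrophil (101 against 1760.4 CPM) gates. The part of such transcripts in the lowest ranges was not tested.

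**Figure D4:**
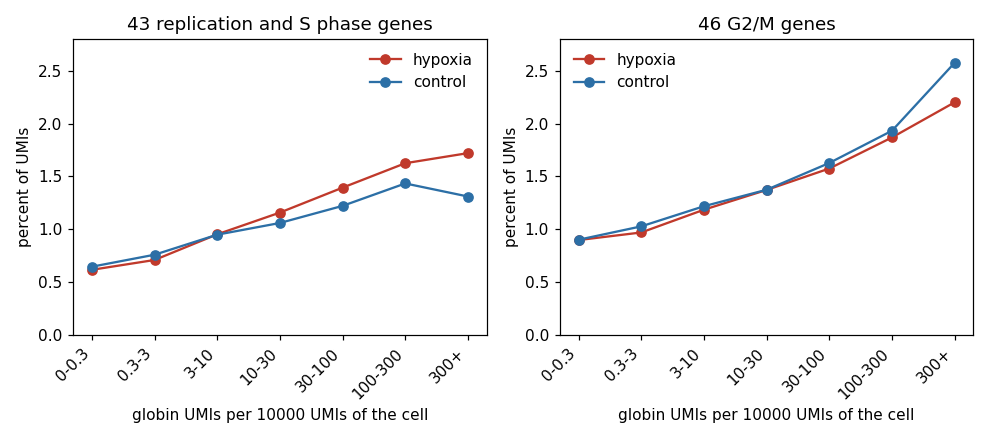
Summed UMIs as a percent of all UMIs (y axis) of the 43 genes (left) and of 46 G2/M genes (right) in erythroid cells grouped by globin UMIs per 10000 (x axis), for the hypoxia (red) and control (blue) libraries. At left hypoxia lies above control from 10 UMIs upwards, reaching 1.72% and 1.31% in the last range, while at right the libraries lie close or control lies higher.

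The Gata2 gate, cells with Gata2 and little Car1, had the lowest ratio of all 13 gates, from 0.313% against 0.422% of UMIs (0.742, 0.703 to 0.783). Of 36 measured members 12 were at least 1.5-fold lower and 1 higher, where 7.62% of all measured genes were lower and 7.16% higher. With gate limits halved, 6 were lower. The higher member was Rfc4, at 52.7 CPM (35.3 to 75.6) against 29.6 CPM (21.3 to 40.0) (ratio 1.78, 1.07 to 2.93), and it no longer passed without the cell richest in members of each library. The lower ones were Mcm2, Mcm5, Mcm6, Orc6, Rfc1, Rpa1, Rpa3, Pold1, Prim1, Tyms, Uhrf1 and Atad2. Pold1 was at 47.2 against 123 CPM (ratio 0.383, 0.244 to 0.581), Mcm2 at 45.4 against 118 CPM (ratio 0.386, 0.243 to 0.590) and Rpa1 at 38.1 against 97.1 CPM. Tyms was at 41.8 against 97.1 CPM, Mcm5 at 92.6 against 213 CPM and Rfc1 at 81.7 against 166 CPM. Pcna, at 213 and 241 CPM, had an interval across 1. By role the ratio was 0.624 (0.561 to 0.693) for licensing and 1.01 (0.903 to 1.12) for the clamp and loader.

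The makeup of the Gata2 gate differed between the libraries. It held 78 hypoxia and 170 control cells, and 6 basophil and mast genes summed to 2859 against 1551 CPM in it. Cpa3, a mast cell protease, had medians of 6.17 and 1.08 per 10000. Divided at 5 Cpa3 UMIs per 10000, a limit chosen after the data had been seen, cells from 5 upwards (40 in each library) had a member ratio of 1.19 (1.05 to 1.34). Cells below 5 (38 and 130) had a ratio of 0.759 (0.713 to 0.808), with G2/M genes at 1.33 (1.28 to 1.39). The members made up 0.234% against 0.196% of UMIs in the cells with more Cpa3 and 0.365% against 0.481% in those with less. Cells with more Cpa3, which had the lower member share in both libraries, were 40 of the 78 hypoxia and 40 of the 170 control cells. The ratio of the whole gate was below that of either set. The part of the different mix of cells in that ratio was not tested.

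In the basophil gate the ratio of sums was 1.102 (1.07 to 1.13), and Rrm2, at 168 against 102 CPM (ratio 1.64, 1.42 to 1.90), was the 1 of 43 members past 1.5-fold, where 3.29% of all measured genes were higher and 2.84% lower. Globins summed to 185 against 17.4 CPM in that gate, Cpa3 was at 7013 against 3547 CPM and Mpo, of granulocyte progenitors, at 1709.8 against 2624 CPM. The megakaryocyte gate had a ratio of 0.888 (0.862 to 0.915), with 14 intervals below 1 and 2 above, where 12.3% of all measured genes had an interval below 1 and 14.3% above. In it 6 granulocyte genes summed to 226 against 573 CPM and 6 basophil and mast genes to 58.6 against 9.88 CPM, and Itga2b, the platelet integrin, was at 727 against 1194 CPM. The neutrophil gate had a ratio of 0.805 (0.756 to 0.858). Of its 29 measured members 5 were 1.5-fold lower (Mcm3, Mcm5, Mcm6, Cdt1 and Pold1) and 0 higher, where 9.97% of all measured genes were lower and 9.6% higher. Cdt1 was at 43.03 against 87.1 CPM and Mcm6 at 79.4 against 145 CPM there. Globins summed to 101 against 1760.4 CPM in the neutrophil gate and the 6 granulocyte genes to 10242 against 21369.7 CPM, with Elane at 2299 against 5565 CPM and Mpo at 3363 against 6981 CPM. The part of such transcripts in the ratios of these 3 gates was not tested.

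Read across the 13 gates, some members kept to 1 side. Pcna had an interval above 1 in 10 gates and below 1 in none, from 1.13 in CFU-E cells to 1.45 in Elane cells. Intervals lay above 1 in 9 gates for Rfc5, 8 for Pola1 and Tk1, 7 for Rfc2 and Chaf1b and 6 for Pole, each with none below. Rfc1 had 9 below 1 and none above, Pold1 8 and none, and Mcm5 7 and none. Mcm6 and Uhrf1 had 8 below and 1 above, and Mcm7 7 below and 1 above. For these 3 the gate above 1 was that of globin-high cells (1.11, 1.09 and 1.05). With TMM factors the counts of Pcna, Pola1, Chaf1b, Pole, Rfc1, Pold1, Mcm5, Mcm7 and Uhrf1 were equal to these, Tk1 and Rfc2 had 6 above, Rfc5 7 above and Mcm6 9 below. Subunits of the clamp loader differed in direction: in CFU-E cells Rfc1 stood at 121 against 132 CPM, Rfc2 at 197 against 174 CPM and Rfc4 at 116 against 102 CPM. All gates share the same 2 libraries, so these counts are not independent of each other. Of the 28 members measured in all 13 gates, 4 (Pcna, Rfc2, Rfc5 and Tk1) had intervals above 1 in at least 6 and below in none, and 3 (Mcm5, Pold1 and Rfc1) the reverse. Of all 3390 genes so measured, 21.2% and 17.8% did, so keeping to 1 side was no more common among the members than among all genes.

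To compare cells at equal depth, each was thinned to 5000 UMIs, and shallower cells were left out (22 hypoxia and 25 control cells of the Hlf gate, 2 and 3 of the CFU-E gate, 8 and 6 of the globin-high gate). The median thinned cell of both libraries held 35 UMIs of the members, and cells with at least that number were counted, with exact binomial intervals. In the Hlf gate they were 25.99% (19.7% to 33.1%) of hypoxia and 20.8% (14.96% to 27.8%) of control cells. In the Elane gate they were 29.1% (25.8% to 32.6%) and 21.6% (17.2% to 26.6%). In the CFU-E gate they were 48.7% (46.3% to 51.1%) and 52.8% (50.3% to 55.3%), at globin onset 90.6% (87.99% to 92.8%) and 95.6% (92.8% to 97.5%), and in globin-high cells 99.2% (98.3% to 99.7%) and 95.3% (91.3% to 97.8%). Intervals of the libraries overlapped in the Hlf, Elane, CFU-E and globin onset gates, and they did not in the globin-high gate. Thinned to 3000 UMIs, the Hlf shares were 24.9% (18.7% to 31.8%) and 24.4% (18.2% to 31.5%), and the CFU-E shares, whose intervals no longer overlapped, 51.2% (48.8% to 53.6%) and 57.2% (54.7% to 59.7%). Without thinning, cells with the same fraction of member UMIs were 21.6% and 17.6% in the Hlf, 30.6% and 16.8% in the Elane, 49.8% and 53.4% in the CFU-E and 98.5% and 92.96% in the globin-high gate. With the limit at the 75th percentile of all thinned cells the order of the libraries turned in 3 of these 5 gates, in Hlf cells (3.39% and 5.95%), in CFU-E cells (16.4% and 12.9%) and at globin onset (62.0% and 56.5%).

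**Figure D5:**
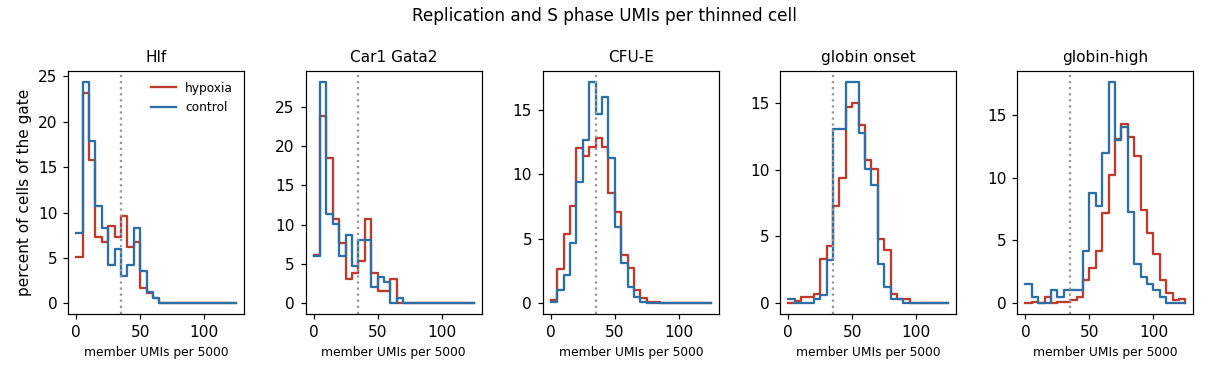
UMIs of the 43 genes per cell thinned to 5000 UMIs (x axis) against the percent of the cells of a gate (y axis, own scale per panel), hypoxia in red and control in blue, with the median of all thinned cells dotted. Cells of the Hlf gate lie mostly below the dotted line, with medians of 19 and 14.5, and globin-high cells almost wholly above it, with medians of 78 and 67.

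Within gates, members varied from cell to cell together with the other replication genes. The Spearman correlation of the thinned sums was 0.852 in hypoxia (177 cells) and 0.861 in control (168 cells) in the Hlf gate. It was 0.676 and 0.534 in CFU-E cells (1666 and 1543) and 0.383 and 0.473 in globin-high cells (864 and 193). With G2/M genes it was 0.313 and 0.277 in Hlf cells and -0.243 and -0.298 in CFU-E cells. Cells of a gate share a library and thinned counts share a fixed total, so these values are descriptions. Hlf cells below 35 member UMIs held a mean of 24.9 G2/M UMIs in hypoxia and 37.2 in control, and those from 35 upwards 25.5 and 35.5. The lower G2/M level of the hypoxia library was thus present in Hlf cells with few and with many replication transcripts.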

How the data were processed

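The authors deposited raw counts of UMIs per cell and gene, 1 table per library, without normalization. Per the file headers, the tables came from the BD WTA Rhapsody Analysis Pipeline 1.7.1 with GRCm38 and GENCODE M19. The submitters' processing notes list Bowtie2 without a role. How barcodes were called as cells is not stated in the sources used here. The tables held 6406 hypoxia and 3956 control cells with 137504361 and 121415081 UMIs, and a gene missing from 1 table was taken as 0 there.

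Cells with at least 500 UMIs, 200 genes and under 20% mitochondrial UMIs were kept (14 and 6 failed), and 112 and 33 doublets called by Scrublet in scanpy 1.11.5 were removed. Cells were gated by non-member markers, whose limits were set after their distributions had been seen. UMIs were summed per gate and library and scaled to CPM, with exact Poisson intervals for levels and exact intervals for ratios (scipy 1.17.1), which treat UMIs as independent. The code was tested on simulated counts. Alternatives were TMM scaling (edgeR 4.0.16), Leiden clusters (leidenalg 0.10.2) built without the members, 1 CPM added in place of 10, doubled and halved gate limits, doublets kept, stricter filters and thinning to 3000 or 5000 UMIs. Promoter letters are from RefSeq (GRCm38.p6), and gene overlaps from GENCODE vM21.

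The members and lists were chosen with earlier results of these data known. Full values were given for the member of each role with the most UMIs and for members at least 1.5-fold different in a gate with an interval off 1 and 20 CPM or more in 1 library, 24 in all, and others are named as examples chosen after their values were seen.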

Additional observations from a re-analysis of the deposited data

Results flagged for a closer look

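The ratio of the summed 43 genes, hypoxia over control, differed from 1 by at least 1.1-fold in 6 of 13 gates, and not in 1 direction. It was above 1 in globin-high cells (1.17, 1.16 to 1.18), Elane cells (1.11, 1.101 to 1.13) and basophil cells (1.102, 1.07 to 1.13). It was below 1 in the Gata2 gate (0.742, 0.703 to 0.783), neutrophil cells (0.805, 0.756 to 0.858) and megakaryocyte cells (0.888, 0.862 to 0.915). With 1 library per group the difference between gates was not tested.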

How the results depend on the processing

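Of 364 values recomputed under an alternative, 287 kept within their tolerance (counting interval, or 1.5 times for a count), 73 moved and 4 turned direction. All values under the stricter cell filter and without a minimum of UMIs kept. The turned ones were the early erythroid ratio (1.03 as a mean over cells, 1.01 thinned) and the globin onset ratio (0.996 with clusters, 0.995 with TMM factors), and the cause was not tested.

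With clusters in place of gates the ratio of sums was 0.9503 in CFU-E, 0.907 in early erythroid and 1.12 in globin-high cells. With limits doubled it was 1.12 in Hlf, 1.097 in Elane, 0.882 in early erythroid, 1.07 in globin onset and 1.15 in globin-high cells. With limits halved it was 1.07 in Hlf cells, 0.871 in the Gata2 gate, 0.922 in early erythroid, 0.973 in CFU-E, 1.02 in globin onset and 1.19 in globin-high cells. TMM factors gave 0.936 in early erythroid and 0.905 in CFU-E cells, with a CFU-E median log2 ratio of -0.12. The mean over cells gave 1.097 in Hlf, 0.968 in CFU-E and 1.201 in globin-high cells. Thinning gave 1.09 in Hlf, 0.961 in CFU-E and 1.03 in globin onset cells. The Gata2 gate gave 0.798 with doublets kept, and has no value with clusters, since no cluster took its name.

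Members 1.5-fold higher numbered 2 in Elane cells with 1 CPM added and 4 when thinned, 2 in Hlf cells with limits doubled or thinned, 1 in early erythroid cells when thinned and 1 in globin-high cells with limits halved. In the Gata2 gate 0 were higher when thinned or without the top cell, and 6 were lower with limits halved. Early erythroid cells had 2 lower with clusters, 3 with limits doubled and 1 with limits halved.

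The rise of the summed level from gate to gate kept its direction under each alternative run. CFU-E over Hlf was, in the order clusters, limits doubled, limits halved, mean over cells and thinned, 1.395, 1.47, 1.27, 1.67 and 1.53 in hypoxia and 1.55, 1.67, 1.403, 1.89 and 1.73 in control. Globin onset over CFU-E was 1.59 (doubled), 1.38 (halved), 1.53 (mean over cells) and 1.53 (thinned) in hypoxia. In control it was 1.43 (clusters), 1.46 (doubled), 1.31 (halved) and 1.43 (thinned). Globin-high over globin onset was 1.45 (clusters), 1.56 (halved), 1.47 (mean over cells) and 1.48 (thinned) in hypoxia. In control it was 1.28 (clusters), 1.35 (doubled), 1.34 (halved) and 1.28 (mean over cells).

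The share of cells rich in members, with the limit at the 75th percentile, was 3.39% in hypoxia and 5.95% in control in Hlf cells, 5.32% and 0.645% in Elane cells, 16.4% and 12.9% in CFU-E cells and 96.99% and 90.2% in globin-high cells. At globin onset it was 62.0% and 56.5%. Among these 5 gates the order of the libraries turned with that limit in Hlf, CFU-E and globin onset cells. Thinned to 3000 UMIs the CFU-E shares were 51.2% and 57.2%, and without thinning the control share of Elane cells was 16.8%.

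No paired analysis was possible because each group is 1 library. Hypoxia cannot be told apart from library, time, age and handling, intervals cover counting error alone, and small gates (50 control cells in the Irf8 or Ly6c2 gate, 78 hypoxia cells in the Gata2 gate) can rest on few cells. Gate limits, globin ranges and the Cpa3 limit were chosen after the data had been seen.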
